A study of Mus musculus with 54 samples.

Results

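The 29 genes described here make cholesterol or control, carry and remove it, and they were read out in 3 brain regions of mice with and without a disrupted Mbd5 allele. They were taken by symbol from a list of the pathway and matched to the GRCm38 annotation, and all 29 were found among the 47069 genes of the count table. By role, 8 belonged to the mevalonate pathway, 11 to the steps from squalene to cholesterol, 5 to regulation and 5 to transport and turnover.

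From each of 18 untreated C57BL/6 mice, 8 weeks old, libraries were made of cerebellum, cortex and striatum, 54 in all. The genotype was Mbd5+/GT in 10 mice, whose heterozygous gene trap within Mbd5 lowers its expression without abolishing it, and WT in 8 littermates. By litter, Mbd5+/GT and WT numbered 3 and 3 (litter 1, females), 4 and 1 (litter 2, males) and 3 and 4 (litter 3, both sexes). Whole tissue was used, so fewer cells of a type and less RNA per cell cannot be told apart.

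Brain cholesterol is made within the brain, because the sterol in blood hardly crosses the barrier between blood and brain tissue. Acetyl-CoA is built up through mevalonate to isoprenoid units, the isoprenoids are joined to squalene, and squalene is closed to a sterol that is then trimmed to cholesterol. When membrane sterol is low, the escort protein Scap carries the SREBP transcription factors, products of Srebf1 and Srebf2, out of the endoplasmic reticulum, and they raise the genes of synthesis. When sterol is plentiful, Insig proteins hold Scap back. In adult brain, oligodendrocytes use cholesterol for myelin, astrocytes pass it on with the carrier Apoe through Abca1, and neurons convert the excess with the hydroxylase Cyp46a1 to a form that leaves the brain.

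The promoters of the genes of synthesis carry short sequence elements that these factors and their partners are known to read, and 5 promoters are shown because the results turn on their genes. Each is the run of 250 bases before the start of a RefSeq transcript on GRCm38.p6, 5′ to 3′, and capitals mark the letters CCAAT or TCANNCCAC, a form of the sterol regulatory element, on either strand. Hmgcs1 lies at chr13:119690101-119690350, plus strand, Idi1 at chr13:8885356-8885605, plus strand, Cyp51 at chr5:4104698-4104947, minus strand, Msmo1 at chr8:64733579-64733828, minus strand and Cyp46a1 at chr12:108334066-108334315, plus strand.
Hmgcs1: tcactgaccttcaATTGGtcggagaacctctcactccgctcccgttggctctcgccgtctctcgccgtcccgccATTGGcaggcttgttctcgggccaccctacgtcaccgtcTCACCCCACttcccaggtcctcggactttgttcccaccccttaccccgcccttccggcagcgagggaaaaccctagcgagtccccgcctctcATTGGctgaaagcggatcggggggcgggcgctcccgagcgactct
Idi1: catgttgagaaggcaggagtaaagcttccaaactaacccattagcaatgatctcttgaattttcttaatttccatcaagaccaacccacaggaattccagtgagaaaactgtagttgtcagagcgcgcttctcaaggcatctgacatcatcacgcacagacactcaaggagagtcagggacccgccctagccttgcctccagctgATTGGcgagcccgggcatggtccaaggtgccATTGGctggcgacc
Cyp51: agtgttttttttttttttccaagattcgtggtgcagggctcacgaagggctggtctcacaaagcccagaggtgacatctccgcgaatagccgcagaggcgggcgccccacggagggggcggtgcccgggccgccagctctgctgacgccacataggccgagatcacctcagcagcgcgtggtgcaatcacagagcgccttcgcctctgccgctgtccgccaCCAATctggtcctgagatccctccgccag
Msmo1: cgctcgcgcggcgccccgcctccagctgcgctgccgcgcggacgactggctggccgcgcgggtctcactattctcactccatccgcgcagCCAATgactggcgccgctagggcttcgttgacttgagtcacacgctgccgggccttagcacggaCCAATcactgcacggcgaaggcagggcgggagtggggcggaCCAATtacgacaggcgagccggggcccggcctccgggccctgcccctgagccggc
Cyp46a1: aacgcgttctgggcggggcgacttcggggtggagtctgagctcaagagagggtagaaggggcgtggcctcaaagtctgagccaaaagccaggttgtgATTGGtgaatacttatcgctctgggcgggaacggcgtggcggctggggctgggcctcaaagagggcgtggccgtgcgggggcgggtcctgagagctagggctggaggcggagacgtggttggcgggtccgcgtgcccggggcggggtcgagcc
The window of Hmgcs1 held the sterol element at 137 bases before the start and CCAAT or its complement at 3 places. That of Msmo1 held CCAAT at 3 places, that of Idi1 at 2, and those of Cyp51 and Cyp46a1 at 1 each. In the annotation used to match the genes, Msmo1, Idi1 and Cyp51 begin inside these windows, so their CCAAT matches lie within the annotated gene.

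RefSeq promoters were matched for 24 of the 29 genes, with 34 windows, and those of Fdps, Fdft1, Sqle, Stard4 and Abcg1 were not used here. CCAAT stood in 21 of the 34 windows (61.8%), from 20 genes, against 33.8% of all 32851 windows of that length. The letters GGGCGG, read by Sp factors, stood in 24 (70.6%), against 32.7% of all windows. CACGTG, an E-box, stood in 6 windows (17.6%), those of Abca1, Dhcr7, Hsd17b7, Insig1, Sc5d and Scap, against 6.02%. TCANNCCAC stood in 1 window (2.94%), that of Hmgcs1, against 3.52% of all windows, and so did the stricter TCACCCCAC that it contains, against 0.496%. All windows were not limited to genes expressed in these regions, and some genes have more than 1. The shares therefore cannot be read as a trait of sterol genes. Both strands were searched, and a match of letters is a description of the window and not a binding site.

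Depth ranged from 25295973 to 49027399 counted reads per library with a median of 29073866, and the 29 genes took 0.176% to 0.403% of them. Mbd5 itself, the gene that carries the trap, averaged 42.9 ± 11.4 CPM (SD) in Mbd5+/GT against 55.9 ± 11.4 in WT cerebellum, 45.3 ± 3.97 against 64.4 ± 9.08 in cortex and 36.2 ± 4.73 against 48.5 ± 8.14 in striatum. CPM are counts relative to the library's total on genes, per 10 to the power of 6, with library sizes scaled by TMM. The regional labels were checked against summed neuronal markers of each region, and 7 libraries fell below 50% of their region's median. Mice carry the numbers of the labels. In cerebellum these libraries were mouse M755 (Mbd5+/GT, 3.23% of the median) and mouse M754 (WT, 30.3%). In striatum they were WT mice M754 (4.33%) and M761 (14.2%) and Mbd5+/GT mice M763 (32.0%), M755 (41.0%) and M756 (41.9%). In cortex there were none. The cortical list could not flag striatal tissue, since its median sum was 658 CPM in WT striatum against 1032 CPM over the cortex libraries. Striatal markers summed in cortex ran from 94.7 to 1037 CPM in WT and from 151 to 699 CPM in Mbd5+/GT mice. The 7 libraries below 50% are called low-marker libraries, and many results that rest on them are given with and without them.

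The low-marker cerebellum libraries stood apart in many genes of synthesis. The share of all genes that did so was not computed, so this cannot be called particular to these genes. Summed over the 19 enzymes from Acat2 to Dhcr7, expression was 1941 CPM in mouse M755 and 1311 CPM in mouse M754, while the other 16 cerebellum libraries ran from 614 to 912 with a median of 725. Hmgcs1, which makes HMG-CoA, was at 603 CPM in mouse M755 and 356 in mouse M754, against 121 to 229 in the others. Sqle, the epoxidase that oxidises squalene, was at 134 and 84.7 CPM, against 24.4 to 44.4. For the lanosterol demethylase Cyp51 the values were 190.3 and 132 CPM against 43.2 to 82.3, and for the methylsterol oxidase Msmo1 193 and 130.2 against 33.2 to 85.4. Both libraries thus lay above every other cerebellum library in each of these 4 enzymes. Of the 5 regulators, Insig1 and Srebf2 also lay above all others, with smaller gaps. Insig1 was at 149.98 and 106 CPM in the 2 libraries against 58.6 to 82.5, and Srebf2 at 190.3 and 148 against 80.2 to 128. Srebf1 was above the others in mouse M755 alone (68.3 CPM, against 49.9 in mouse M754 and 26.7 to 52.9). Insig2 (56.9 and 64.2 CPM) and Scap (79.1 and 77.1 CPM) lay inside the range of the other 16, as did the sterol carrier Stard4 (64.3 and 58.7 CPM) and the sterol isomerase Ebp (28.7 and 27.9 CPM). The exporter Abca1 was instead lowest of all in mouse M755, at 31.7 CPM, and at 40.6 in mouse M754, against 34.2 to 118. Several marker lists moved with the enzymes. Summed oligodendrocyte markers were at 32103 CPM in mouse M755 and 19013 in mouse M754 against 4232 to 9247 in the others. Microglia markers were at 313 and 227 CPM against 95.5 to 148, and neuron markers at 7677 and 7245 against 5661 to 6301. In mouse M754 endothelium and ependyma markers also lay above the others, astrocyte markers inside their range and cortical and striatal neuron markers below it. The part of these lists in the result was not tested. In the 5 low-marker striatum libraries the sum of the 19 enzymes was 815 to 1160 CPM, against 743 to 1162 in the other 13.

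**Figure D1:**
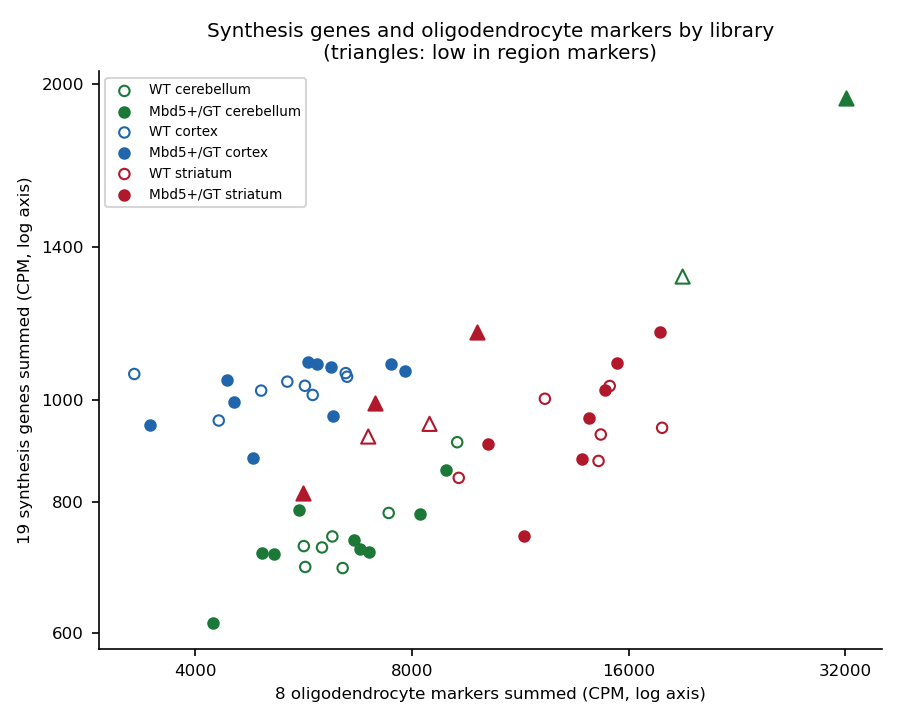
Summed expression of the 19 enzymes of cholesterol synthesis (y axis, CPM) against 8 summed oligodendrocyte markers (x axis, CPM), both on log axes, 1 point per library. Colours mark the region, open points WT, filled points Mbd5+/GT and triangles the low-marker libraries. The cerebellum libraries of mice M755 and M754 lie at 1941 and 1311 CPM on the y axis, and the other 16 lie between 614 and 912.

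Regional levels in WT mice were compared first, since they set the scale for the genotype comparison. The paper states that each type of tissue was collected on the same day, and libraries of a region follow one another in the column labels. Region and the order of handling therefore cannot be told apart. Values are mean ± SD over the 8 WT libraries of a region, in CPM, in the order cerebellum, cortex and striatum. Log2 differences, with SE and Benjamini-Hochberg adjusted p, come from the edgeR quasi-likelihood test over all 54 libraries. A member was called at an adjusted p under 0.05 and an absolute log2 difference of at least 0.5.

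Cortex exceeded cerebellum in 5 of 29 members (Hmgcs1, Fdft1, Msmo1, Srebf2 and Cyp46a1) and lay below it in 3 (Ebp, Stard4 and Abcg1). Over all genes tested 40.4% were called in this comparison, 22.5% higher and 17.9% lower in cortex, so the members' share was below the background. Striatum exceeded cerebellum in 9 members and lay below it in 7, against 50.4% of all genes, 26.0% higher and 24.4% lower. Higher in striatum were Acat2, Mvk, Fdps, Fdft1, Msmo1, Srebf1, Srebf2, Cyp46a1 and Apoe, and lower were Idi1, Ggps1, Ebp, Sc5d, Insig2, Stard4 and Abca1. Between striatum and cortex 2 members were higher in striatum (Srebf1 and Apoe) and 7 were lower (Hmgcs1, Idi1, Ggps1, Hsd17b7, Sc5d, Stard4 and Abca1), against 28.9% of all genes, 12.6% higher and 16.4% lower. The median log2 difference over the 29 members was 0.11 between cortex and cerebellum, 0.29 between striatum and cerebellum and 0.061 between striatum and cortex. Over all genes tested these medians were −0.020, 0.020 and −0.00077.

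Without the low-marker libraries, 9 members were higher and 3 lower in cortex than in cerebellum (background 43.3%). The additions were Fdps, Sqle, Nsdhl and Hsd17b7. Between striatum and cerebellum 13 were higher and 6 lower (background 51.8%), with Sqle, Nsdhl, Dhcr7 and Mvd added and Insig2 lost just under the fold threshold at −0.50 (adjusted p = 6.1e-09). Between striatum and cortex 3 were higher and 7 lower (background 29.8%), with Cyp46a1 added. Markers of several cell types differed between regions as well. With all libraries 8 of 8 microglia markers were called higher in cortex, and 8 of 8 in striatum, than in cerebellum. Between striatum and cerebellum 5 of 5 ependyma markers were higher, and of 8 astrocyte markers 1 was higher and 4 lower. Of the oligodendrocyte markers, 8 of 8 were called higher in striatum than in cortex, 6 higher in striatum than in cerebellum and 2 lower in cortex than in cerebellum. Without the low-marker libraries the counts of oligodendrocyte markers were 8 higher, 8 higher and, for cortex against cerebellum, 1 higher and 0 lower. Summed oligodendrocyte markers of all libraries ran from 5662 to 19013 CPM in WT cerebellum, from 3292 to 6502 in cortex and from 6957 to 17808 in striatum. The part of these marker lists in the members' differences was not tested.

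**Figure D2:**
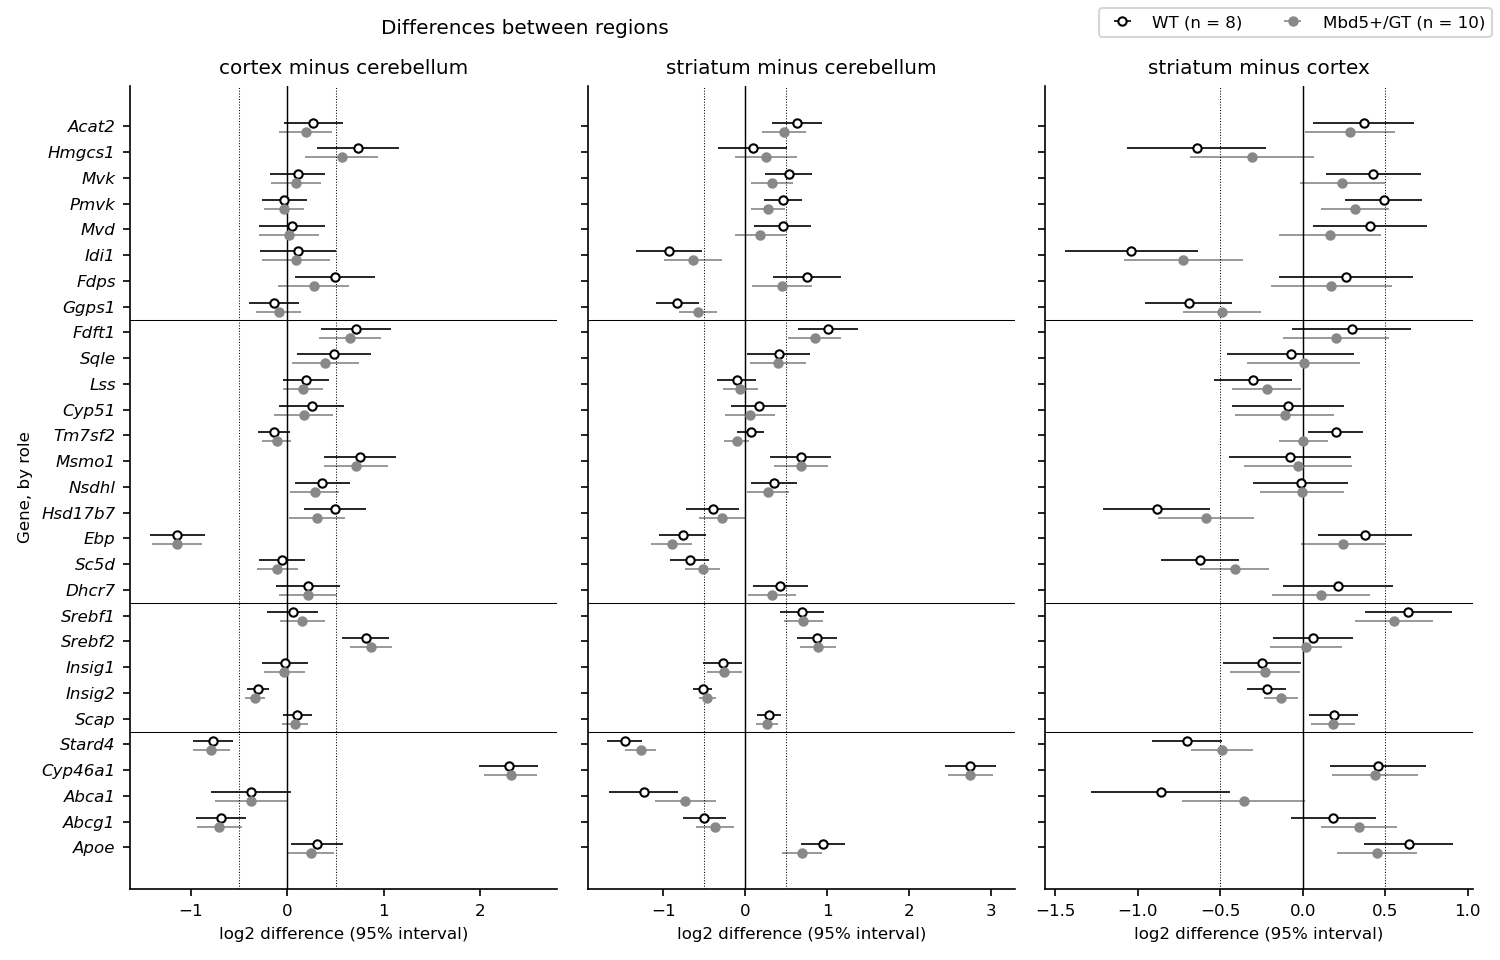
Log2 differences between regions for the 29 members (y axis, grouped by role) in WT mice (open points) and Mbd5+/GT mice (filled points), 1 panel per pair of regions, with bars for the 95% interval and dotted lines at −0.5 and 0.5. In WT mice Cyp46a1 lies farthest to the right, at 2.29 and 2.75 against cerebellum, and Stard4 farthest to the left between striatum and cerebellum, at −1.47.

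The mevalonate pathway split by enzyme. Between striatum and cerebellum 3 of its 8 genes were called higher and 2 lower, and between striatum and cortex 0 were higher and 3 lower. Hmgcs1 (ENSMUSG00000093930, chromosome 13, 119690379 to 119708260) ranged from 125 to 356 CPM with a median of 158 in WT cerebellum, from 274 to 329.7 CPM with a median of 305 in cortex and from 167 to 278 CPM with a median of 193 in striatum. The highest cerebellum library was that of mouse M754, and without it the cerebellum ended at 229, below every cortex library. The log2 difference was 0.73 (SE 0.22, adjusted p = 0.00319) between cortex and cerebellum and −0.64 (SE 0.21, adjusted p = 0.0123) between striatum and cortex. Between striatum and cerebellum it was 0.091 (SE 0.21, adjusted p = 0.724) with all libraries and 0.36 (adjusted p = 0.0139) without the low-marker ones.

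Idi1 (ENSMUSG00000058258, chromosome 13, 8885501 to 8892451), which interconverts the isoprenoid building blocks, ran from 7.23 to 22.2 CPM with a median of 10.9 in WT cerebellum. In cortex its range was 10.3 to 15.3 (median 13.5) and in striatum 4.39 to 9.58 (median 6.88), so that all striatum libraries lay below all cortex libraries. The log2 difference was −1.04 (SE 0.21, adjusted p = 7.3e-05) between striatum and cortex and −0.93 (SE 0.21, adjusted p = 1.0e-04) between striatum and cerebellum, and cortex and cerebellum did not differ beyond their spread at 0.11 (SE 0.20, adjusted p = 0.664). Ggps1, which makes the lipid used to prenylate proteins, was also lowest in striatum. Its WT libraries ran from 32.5 to 71.1 CPM with a median of 50.1 in cerebellum, from 34.1 to 52.3 CPM with a median of 47.0 in cortex and from 23.1 to 35.9 CPM with a median of 27.9 in striatum, where the ranges overlapped at their ends. The difference of striatum was −0.83 (SE 0.14, adjusted p = 5.5e-07) from cerebellum and −0.69 (SE 0.13, adjusted p = 5.9e-05) from cortex.

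The other 5 genes of the mevalonate pathway were highest on average in striatum. Acat2, which joins acetyl-CoA units, averaged 27.0 ± 8.99, 31.5 ± 4.58 and 41.9 ± 4.54 CPM, with a log2 difference between striatum and cerebellum of 0.64 (SE 0.16, adjusted p = 3.7e-04). Mvk, the kinase of mevalonate, averaged 15.1 ± 3.63, 15.7 ± 2.59 and 21.8 ± 3.03 CPM, with 0.53 (SE 0.15, adjusted p = 0.00139) for the same pair. The next kinase, Pmvk, averaged 35.7 ± 6.44, 33.8 ± 4.86 and 49.0 ± 9.44 CPM and stayed below the fold threshold at 0.46 (SE 0.12, adjusted p = 6.7e-04). Mvd, which removes carbon dioxide from the product, averaged 18.1 ± 5.30, 18.2 ± 3.80 and 24.8 ± 4.21 CPM, with 0.46 (SE 0.18, adjusted p = 0.0205). Fdps, which makes farnesyl diphosphate, averaged 1.27 ± 0.303, 1.73 ± 0.356 and 2.13 ± 0.514 CPM from only 24 to 116 counts per library, and 26.7% of its exon bases are shared with the overlapping gene Gm43738, so its level is uncertain. Its difference between cortex and cerebellum was 0.49 (SE 0.21, adjusted p = 0.0419), and 0.51 (adjusted p = 0.0224) with mouse as a block.

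Of the 11 genes from squalene to cholesterol, 2 were higher and 1 lower in cortex than in cerebellum, and 2 higher and 2 lower in striatum than in cerebellum. Fdft1, the squalene synthase, ran from 37.3 to 107 CPM with a median of 47.9 in WT cerebellum, from 80.3 to 101 CPM with a median of 83.6 in cortex and from 93.4 to 129 CPM with a median of 110.4 in striatum. The cerebellum maximum was again mouse M754, and the remaining 7 libraries ended at 61.2, under both other regions. Its log2 difference from cerebellum was 0.71 (SE 0.18, adjusted p = 9.2e-04) in cortex and 1.01 (SE 0.19, adjusted p = 5.3e-06) in striatum, and 18.3% of its exon bases are shared with Ctsb.

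Sqle (ENSMUSG00000022351, chromosome 15, 59315077 to 59331192) behaved likewise in range but not in its call. Its WT values were 31.3 to 84.7 (median 38.2) in cerebellum, 49.4 to 64.4 (median 61.1) in cortex and 51.9 to 66.0 (median 55.6) CPM in striatum, with the cerebellum maximum in mouse M754 and the next library at 43.0. With all libraries the difference was 0.48 (SE 0.20, adjusted p = 0.0332) between cortex and cerebellum, under the fold threshold. With mouse as a block it was 0.54 (adjusted p = 0.00649) and past the threshold, and without the low-marker libraries 0.70 (adjusted p = 1.7e-07). Its difference between striatum and cerebellum moved from 0.41 (SE 0.20, adjusted p = 0.0634) to 0.61 (adjusted p = 6.7e-06) without those libraries.

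Ebp, the isomerase that moves the double bond of the sterol ring, went the other way. It ran from 20.9 to 47.1 CPM with a median of 32.6 in WT cerebellum, from 12.2 to 19.6 CPM with a median of 13.6 in cortex and from 14.6 to 24.2 CPM with a median of 19.3 in striatum. Every cerebellum library lay above every cortex library, while cerebellum and striatum overlapped. The log2 differences were −1.14 (SE 0.15, adjusted p = 2.7e-09) for cortex and −0.76 (SE 0.15, adjusted p = 9.4e-06) for striatum against cerebellum.

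Msmo1, with the 3 CCAAT matches shown above, averaged 69.4 ± 27.4, 113 ± 7.76 and 111 ± 13.7 CPM and differed from cerebellum by 0.76 (SE 0.19, adjusted p = 6.0e-04) in cortex and 0.68 (SE 0.19, adjusted p = 0.00155) in striatum. Cyp51 averaged 70.8 ± 26.4, 81.5 ± 3.55 and 79.0 ± 8.58 CPM and was not called in any pair of regions. Its difference between cortex and cerebellum was 0.25 (SE 0.17, adjusted p = 0.213), and 0.46 (adjusted p = 5.6e-05) without the low-marker libraries. The dehydrogenase Nsdhl averaged 21.2 ± 6.45, 26.3 ± 2.18 and 26.9 ± 2.27 CPM, with 0.36 (SE 0.15, adjusted p = 0.0308) between cortex and cerebellum and 0.53 (adjusted p = 7.5e-08) without those libraries. Hsd17b7, the ketosteroid reductase of the same complex, had its highest mean in cortex, at 19.5 ± 4.61, 26.4 ± 3.97 and 14.7 ± 2.65 CPM, and striatum differed from cortex by −0.89 (SE 0.17, adjusted p = 3.4e-05) on the log2 scale. Its difference between cortex and cerebellum was 0.49 (SE 0.16, adjusted p = 0.00947), and 0.50 (adjusted p = 0.00426) with mouse as a block. Sc5d, a desaturase, averaged 64.4 ± 13.3, 59.7 ± 6.65 and 40.0 ± 4.99 CPM and was lower in striatum than in cerebellum at −0.68 (SE 0.12, adjusted p = 3.2e-06). Dhcr7, the reductase of the last step, averaged 28.1 ± 8.32, 31.5 ± 4.11 and 37.7 ± 4.59 CPM, with 0.43 (SE 0.17, adjusted p = 0.0237) between striatum and cerebellum. Levels were close between regions for the cyclase Lss (44.3 ± 7.56, 48.9 ± 6.07 and 41.0 ± 4.28 CPM) and the reductase Tm7sf2 (24.7 ± 3.31, 21.7 ± 2.13 and 25.7 ± 3.00 CPM), neither of which was called in any pair. Of Tm7sf2, 12.1% of exon bases are shared with Vps51.

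Among the regulators, the 2 genes of SREBP factors differed by region in different ways. Srebf2 (ENSMUSG00000022463, chromosome 15, 82147181 to 82205379) ran from 91.2 to 148 CPM with a median of 108 in WT cerebellum, from 154 to 243 CPM with a median of 187 in cortex and from 155 to 245 CPM with a median of 205 in striatum. All cerebellum libraries lay below all those of the other regions, by 0.81 (SE 0.12, adjusted p = 1.9e-07) for cortex and 0.87 (SE 0.12, adjusted p = 3.0e-08) for striatum, whereas striatum and cortex differed by 0.061 (SE 0.12, adjusted p = 0.715). Srebf1 was instead set apart in striatum. Its values were 31.7 to 49.9 (median 37.4) CPM in cerebellum, 33.7 to 50.4 (median 38.5) in cortex and 55.2 to 75.8 (median 60.9) in striatum, with no overlap between striatum and either other region. The log2 difference of striatum was 0.69 (SE 0.13, adjusted p = 1.3e-05) from cerebellum and 0.64 (SE 0.13, adjusted p = 1.6e-04) from cortex.

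Insig1 averaged 73.3 ± 14.3, 69.6 ± 7.61 and 60.4 ± 5.72 CPM, with ranges of 58.6 to 106 (median 69.6), 61.4 to 80.1 (median 67.7) and 53.8 to 71.6 (median 59.9) that overlapped in every pair. Its largest difference was −0.27 (SE 0.12, adjusted p = 0.0438) between striatum and cerebellum, under the fold threshold. Insig2 varied less between mice, at 63.4 ± 2.47, 49.6 ± 2.52 and 43.9 ± 3.26 CPM. Its cerebellum libraries all lay above those of cortex and striatum, with a log2 difference of −0.30 (SE 0.060, adjusted p = 2.2e-05) and −0.52 (SE 0.060, adjusted p = 1.1e-10). Scap averaged 78.5 ± 5.88, 81.3 ± 7.12 and 95.4 ± 10.8 CPM, and 13.2% of its exon bases are shared with another gene.

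The widest regional differences of all 29 members were in transport and turnover. Cyp46a1 (ENSMUSG00000021259, chromosome 12, 108334381 to 108362234) ran from 30.7 to 51.9 CPM with a median of 38.4 in WT cerebellum, from 154 to 231 CPM with a median of 184 in cortex and from 197 to 389.8 CPM with a median of 252 in striatum. Cerebellum lay below both other regions in every library, by 2.29 (SE 0.16, adjusted p = 4.0e-18) for cortex and 2.75 (SE 0.16, adjusted p = 7.8e-21) for striatum on the log2 scale. Striatum and cortex overlapped and differed by 0.46 (SE 0.15, adjusted p = 0.00974), and by 0.59 (adjusted p = 6.9e-04) without the low-marker libraries, past the fold threshold.

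Stard4, which carries sterol between membranes, had the opposite order. Its WT libraries ran from 55.8 to 76.0 CPM with a median of 63.7 in cerebellum, from 30.5 to 40.5 CPM with a median of 37.0 in cortex and from 19.4 to 27.7 CPM with a median of 22.7 in striatum, and no pair of regions overlapped. The log2 differences were −0.77 (SE 0.11, adjusted p = 2.3e-08), −1.47 (SE 0.11, adjusted p = 9.5e-17) and, between striatum and cortex, −0.70 (SE 0.11, adjusted p = 1.6e-06). It was the member in which all 3 pairs were both called and free of overlap.

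Apoe rose toward striatum. It ran from 607 to 1012 CPM with a median of 779 in cerebellum, from 745 to 1357 CPM with a median of 931 in cortex and from 1209.7 to 2102 CPM with a median of 1533 in striatum, with all striatum libraries above all cerebellum libraries. The differences were 0.95 (SE 0.14, adjusted p = 4.2e-08) between striatum and cerebellum and 0.64 (SE 0.14, adjusted p = 1.9e-04) between striatum and cortex, while cortex and cerebellum gave 0.31 (SE 0.14, adjusted p = 0.0491) and 0.31 (adjusted p = 0.0619) with mouse as a block. The exporter Abca1 averaged 68.3 ± 25.4, 50.5 ± 8.13 and 28.7 ± 9.53 CPM and was lower in striatum, at −1.24 (SE 0.22, adjusted p = 2.0e-06) against cerebellum and −0.86 (SE 0.21, adjusted p = 0.00101) against cortex. Abcg1, the exporter to lipoproteins, averaged 85.4 ± 13.2, 51.3 ± 8.06 and 60.1 ± 15.5 CPM, with −0.68 (SE 0.13, adjusted p = 1.6e-05) between cortex and cerebellum. It gave −0.50 (SE 0.13, adjusted p = 9.4e-04), and −0.52 (adjusted p = 9.9e-05) with mouse as a block, between striatum and cerebellum.

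Libraries did not overlap in 5 of 29 members between cortex and cerebellum (Ebp, Srebf2, Insig2, Stard4 and Cyp46a1), against 23.4% of all genes. The count was 6 (Srebf1, Srebf2, Insig2, Stard4, Cyp46a1 and Apoe) between striatum and cerebellum, against 22.9%, and 3 between striatum and cortex (Idi1, Srebf1 and Stard4), against 7.21%. The members' share was somewhat below the background in both comparisons with cerebellum and somewhat above it between striatum and cortex. Without the low-marker libraries the counts were 10 (background 30.3%), 12 (36.3%) and 4 (12.3%), each share close to its background. Hmgcs1, Fdft1, Sqle, Msmo1 and Nsdhl were added between cortex and cerebellum, and Cyp46a1 between striatum and cortex. Acat2, Fdft1, Sqle, Msmo1, Nsdhl and Dhcr7 were added between striatum and cerebellum.

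**Figure D3:**
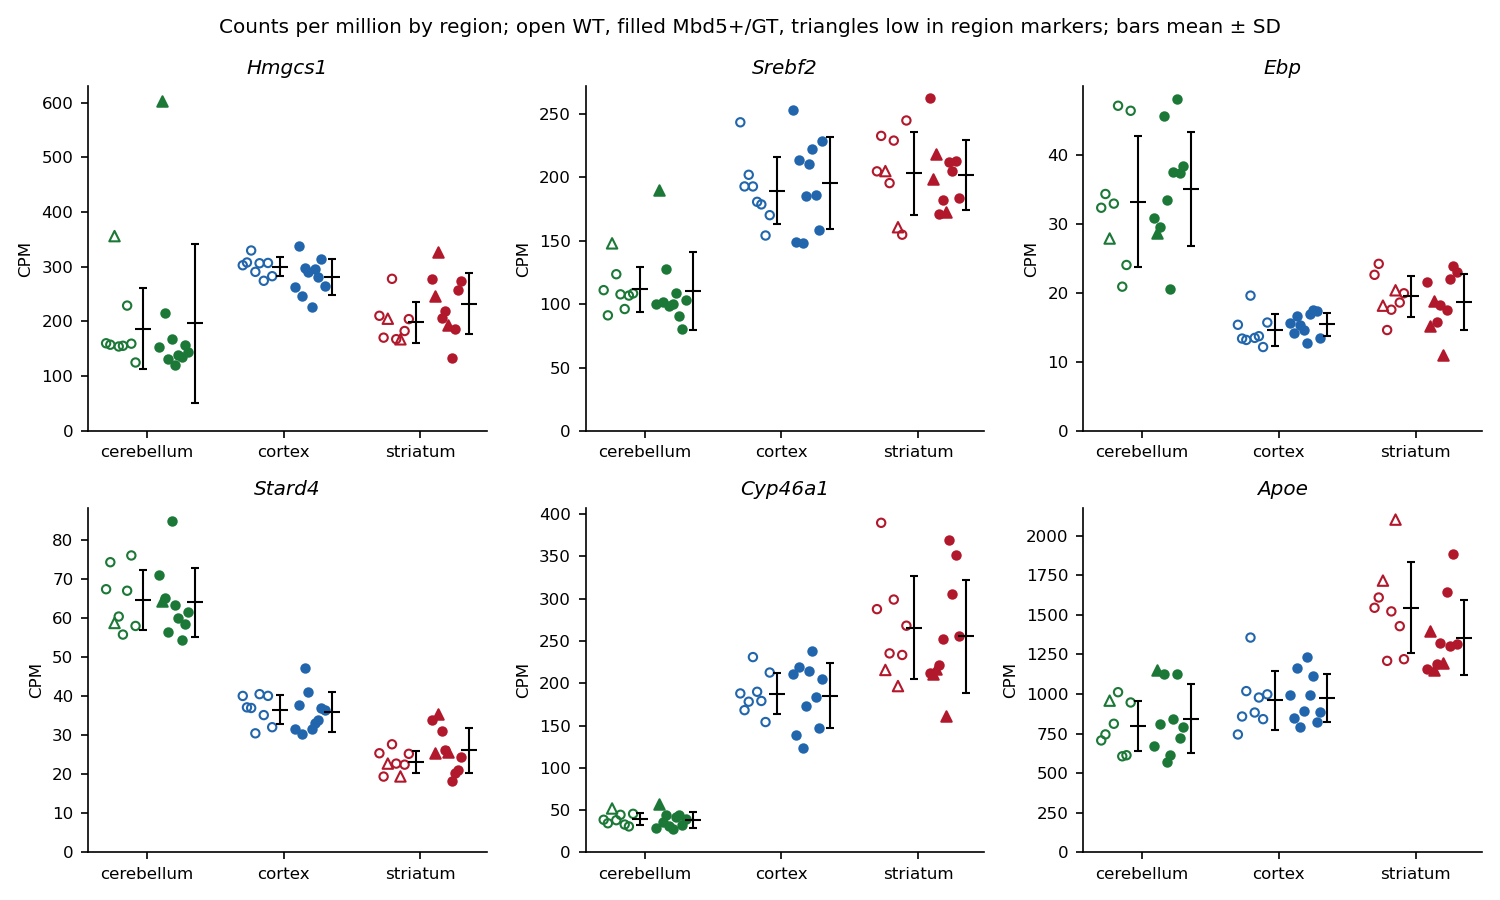
Expression of 6 members (y axes, CPM) by region and genotype, 1 point per library, open for WT and filled for Mbd5+/GT, with bars for the mean ± SD and triangles for the low-marker libraries. Cyp46a1 is at 30.7 to 51.9 CPM in WT cerebellum and 154 to 390 CPM in the other WT libraries, and the cerebellum libraries of mice M755 and M754 lie highest in the panel of Hmgcs1.

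Levels were compared between members per kilobase of the longest coding transcript. Apoe was highest at 568, 682 and 1097 CPM per kb in WT cerebellum, cortex and striatum, followed in cortex by Cyp46a1 at 18.7, 88.6 and 125, Hmgcs1 at 54.02, 86.7 and 57.2 and Msmo1 at 33.9, 55.4 and 54.2. The lowest were Fdps at 0.917, 1.25 and 1.54 and Idi1 at 4.14, 4.31 and 2.16. The level of Fdps is uncertain because of the exon bases shared with Gm43738, and so is its place in this order. The order of Cyp46a1 and Hmgcs1 thus turned between cerebellum and striatum.

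**Figure D4:**
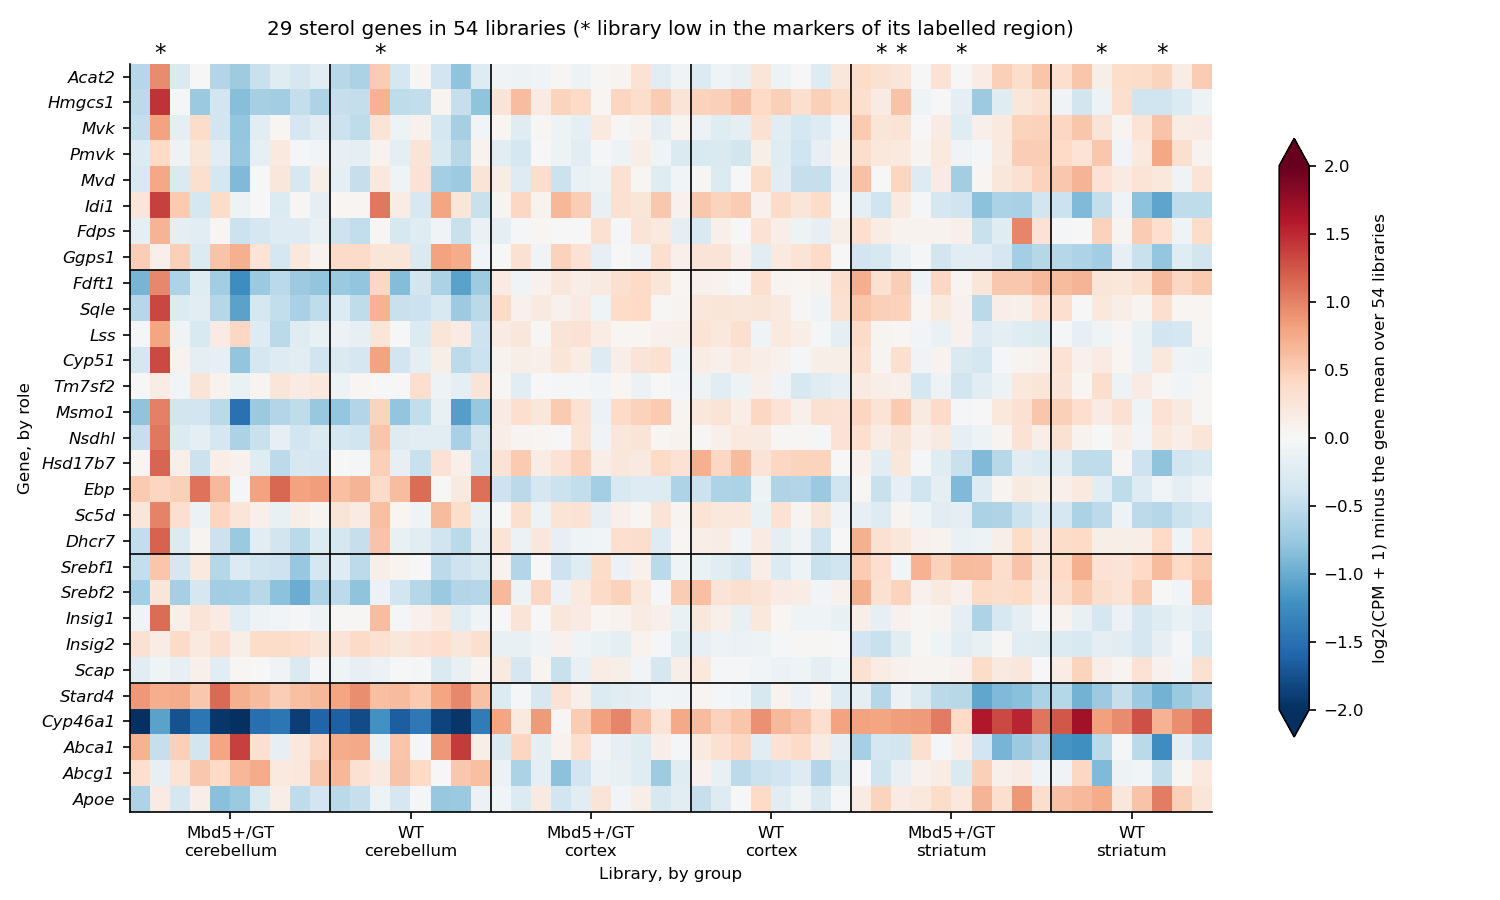
Level of each of the 29 members (rows, by role) in each of the 54 libraries (columns, by region and genotype), as log2(CPM + 1) minus the member's mean over all libraries, on a colour scale, with asterisks over the low-marker libraries. Within cerebellum most enzymes are highest in the cerebellum libraries of mice M755 and M754, and Cyp46a1 separates cerebellum from the other regions.

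The balance between long and short transcripts also differed between regions. Over coding genes, the mean log2 level of those with long transcripts (at least 4614 bases) minus that of those with short ones (at most 1974 bases) had a median of 0.14 in WT cerebellum, 0.37 in cortex and −0.41 in striatum, each library set against the mean over all libraries. The 15 members with transcripts of at most 2815 bases had a median log2 difference between striatum and cortex of 0.26, and the 14 longer members −0.46. Over all coding genes the same split gave 0.29 and −0.17. The medians were 0.46 and −0.25 for members, and 0.18 and −0.18 for all coding genes, between striatum and cerebellum. The 7 members called lower in striatum than in cortex were all among the longer ones. Of the 2 called higher, Srebf1 was among the longer and Apoe among the shorter ones, and the part of length in these differences was not tested.

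The same regional differences were read in the 10 Mbd5+/GT mice, which are other animals. There 5 members were higher and 3 lower in cortex than in cerebellum (background 41.7%), and they were the 8 members called in WT mice. Between striatum and cerebellum 6 were higher and 6 lower (background 46.7%), all of them among the 16 of WT mice. Between striatum and cortex 1 was higher, Srebf1, and 2 lower, Idi1 and Hsd17b7 (background 17.3%), against 9 in WT mice. Without the low-marker libraries the Mbd5+/GT mice had 8 higher and 3 lower in cortex than in cerebellum (background 45.0%), 13 and 4 between striatum and cerebellum (50.7%) and 3 and 4 between striatum and cortex (24.7%), against 10 in WT mice for the last pair. With all libraries, the sign was the same in both genotypes for 29, 28 and 28 of 29 members. Cyp46a1 differed from cerebellum by 2.32 (SE 0.14, adjusted p = 2.4e-20) in Mbd5+/GT cortex and 2.75 (SE 0.14, adjusted p = 5.2e-23) in Mbd5+/GT striatum, and Stard4 by −0.79 (SE 0.10, adjusted p = 5.9e-10) and −1.28 (SE 0.10, adjusted p = 1.6e-16).

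Whether the genotype effect differed between regions was tested by interaction terms in the same edgeR fit. None of the 29 members had an unadjusted p under 0.05 for cortex against cerebellum (background 1.11%), striatum against cerebellum (2.68%) or striatum against cortex (4.22%), and none had an adjusted p under 0.05. The smallest unadjusted p belonged to Abca1 in both comparisons with striatum. Its log2 difference between striatum and cortex was −0.86 in WT and −0.36 in Mbd5+/GT mice, a difference of 0.50 (SE 0.29, unadjusted p = 0.0842).

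The genotype comparison asked whether loss of part of Mbd5 expression changes these genes in each region. Mbd5+/GT and WT libraries were compared within a region by the edgeR quasi-likelihood test with surrogate variables. No member had an adjusted p under 0.05 in cerebellum, cortex or striatum, where 0.00551%, 0.0107% and 0.00539% of all genes did. At an unadjusted p under 0.05 there were 2 members in cerebellum (background 2.75%), both lower in Mbd5+/GT mice (1.78%). Cortex had 2 as well (8.46%), both lower (4.51%), and striatum had 0 (7.44%). DESeq2 gave 2, 2 and 0. On counts of at most 2 members, the share was above the background in cerebellum and below it in cortex and striatum.

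Abca1 (ENSMUSG00000015243, chromosome 4, 53030787 to 53159895) was the member with an unadjusted p under 0.05 in more than 1 region. In cerebellum it ran from 31.7 to 116 CPM with a median of 57.4 in Mbd5+/GT mice and from 40.6 to 118 CPM with a median of 69.9 in WT mice, and in cortex from 36.0 to 59.5 CPM with a median of 42.8 and from 38.1 to 59.4 CPM with a median of 52.6. The groups overlapped over most of their ranges in both regions. The log2 fold change was −0.13 (SE 0.048) in cerebellum, with an unadjusted p of 0.0139 and an adjusted p of 1, and −0.15 (SE 0.057) in cortex, with 0.0165 and 0.482. In striatum the value was positive, at 0.10 (SE 0.10). The balance of long over short transcripts differed by genotype in the same directions, with a median of 0.038 in Mbd5+/GT against 0.14 in WT cerebellum, 0.19 against 0.37 in cortex and −0.25 against −0.41 in striatum. Across the 18 mice Abca1, whose transcript has 10262 bases, varied with this balance at r = 0.88, 0.77 and 0.76, and the part of the balance in its fold change was not tested. By litter (1, 2, 3), Mbd5+/GT minus WT on the log2 scale gave −0.15, 0.079 and −0.26 for cerebellum and −0.17, 0.10 and −0.20 for cortex, so that litter 2, with its 1 WT mouse, went against the others. Without the model across genes, exact permutation tests over 43758 splits, 2-sided, gave p = 0.426 and 0.144. Without the low-marker libraries the same test in cerebellum gave p = 0.409 over 11440 splits. The call was lost without surrogate variables, at a log2 fold change of −0.20 (unadjusted p = 0.422) in cerebellum and −0.18 (0.126) in cortex, and with litter and sex as covariates, at −0.081 (0.730) and −0.13 (0.282). In cortex it was also lost with at least 10 counts in every library, at −0.0995 (0.0779), and without litter 2, at −0.13 (0.146).

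Cyp46a1 was lower in Mbd5+/GT cerebellum by the unadjusted p alone, at −0.11 (SE 0.045), with an unadjusted p of 0.0277 and an adjusted p of 1. Its libraries ran from 27.8 to 57.6 CPM with a median of 37.4 against from 30.7 to 51.9 CPM with a median of 38.4 in WT, and the Mbd5+/GT range held the whole WT range. Both maxima were low-marker libraries, and the other 16 cerebellum libraries ended at 45.6 CPM. The litters gave −0.087, −0.22 and −0.050, and the exact permutation p was 0.640, or 0.520 without the low-marker libraries. Without surrogate variables the fold change was −0.056 (unadjusted p = 0.697) and with litter and sex as covariates −0.12 (0.362). In cortex and striatum Cyp46a1 was at −0.090 (SE 0.057) and −0.067 (SE 0.075).

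Hsd17b7 (ENSMUSG00000026675, chromosome 1, 169949535 to 169969241) ran from 21.4 to 28.4 CPM with a median of 24.0 in Mbd5+/GT cortex and from 19.6 to 32.2 CPM with a median of 26.4 in WT cortex. The 10 Mbd5+/GT libraries lay inside the WT range. The log2 fold change was −0.12 (SE 0.043), with an unadjusted p of 0.00932 and an adjusted p of 0.436. Litters 1 to 3 gave −0.14, 0.27 and −0.18, and the exact permutation p was 0.174. Without surrogate variables the value was −0.13 (unadjusted p = 0.131) and with litter and sex as covariates −0.078 (0.407). In cortex Hsd17b7 varied with the length balance at r = 0.81.

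The remaining members had an unadjusted p of at least 0.05 in every region. The value farthest from 0 among them was that of Fdps in cerebellum, at 0.23 (SE 0.12) with an unadjusted p of 0.0745, larger in size than those of Abca1, Cyp46a1 and Hsd17b7. Hmgcs1 averaged 197 ± 145 CPM in Mbd5+/GT and 187 ± 74.2 in WT cerebellum, a log2 fold change of 0.0048 (SE 0.069). In cortex it averaged 282 ± 33.2 against 300.2 ± 17.2, with −0.094 (SE 0.050) and an unadjusted p of 0.0750. That p was 0.0111 with at least 10 counts in every library, at −0.14, and 0.00534 without litter 2, at −0.17. In striatum it averaged 232 ± 55.5 against 198 ± 36.8, with 0.090 (SE 0.10). The large SD in cerebellum comes with the library of mouse M755 at 603 CPM, and without the low-marker libraries the fold change was −0.034. Sqle gave −0.021 (SE 0.071), −0.020 (SE 0.054) and 0.052 (SE 0.10) in cerebellum, cortex and striatum. Srebf2 gave −0.046 (SE 0.071), −0.013 (SE 0.051) and −0.018 (SE 0.053). For Insig1 the values were 0.038 (SE 0.046), 0.074 (SE 0.060) and 0.014 (SE 0.091), and for Apoe 0.0044 (SE 0.055), −0.0094 (SE 0.067) and −0.058 (SE 0.071). Apart from Hmgcs1 in cortex, each value of these 5 members was smaller than the spread between mice. The cortex means of Hmgcs1 lay apart by more than the WT SD and less than the Mbd5+/GT SD. The exact permutation p of the 5 members ran from 0.132 to 0.970.

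By role, the 8 genes of the mevalonate pathway had median log2 fold changes of 0.032, 0.032 and −0.011 in cerebellum, cortex and striatum, and none had an unadjusted p under 0.05. The 11 genes from squalene to cholesterol had 0.022, 0.035 and −0.015, with 1 lower in cortex. Medians of the 5 regulators were −0.023, −0.013 and 0.014, with none under 0.05. Those of the 5 genes of transport and turnover were −0.053, −0.074 and 0.038, with 2 lower in cerebellum and 1 in cortex. Over all 29 members the medians were 0.0092, 0.0010 and 0.00064, and over all genes tested −0.0035, −0.0042 and −0.0099. In the fit with surrogate variables, no 95% interval of a member reached a log2 fold change of 0.5 in either direction. The farthest bounds were 0.47 in cerebellum, 0.30 in cortex and 0.44 in striatum, all of Fdps, the member with the fewest counts. These bounds hold for that fit alone, and intervals without surrogate variables are not given.

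**Figure D5:**
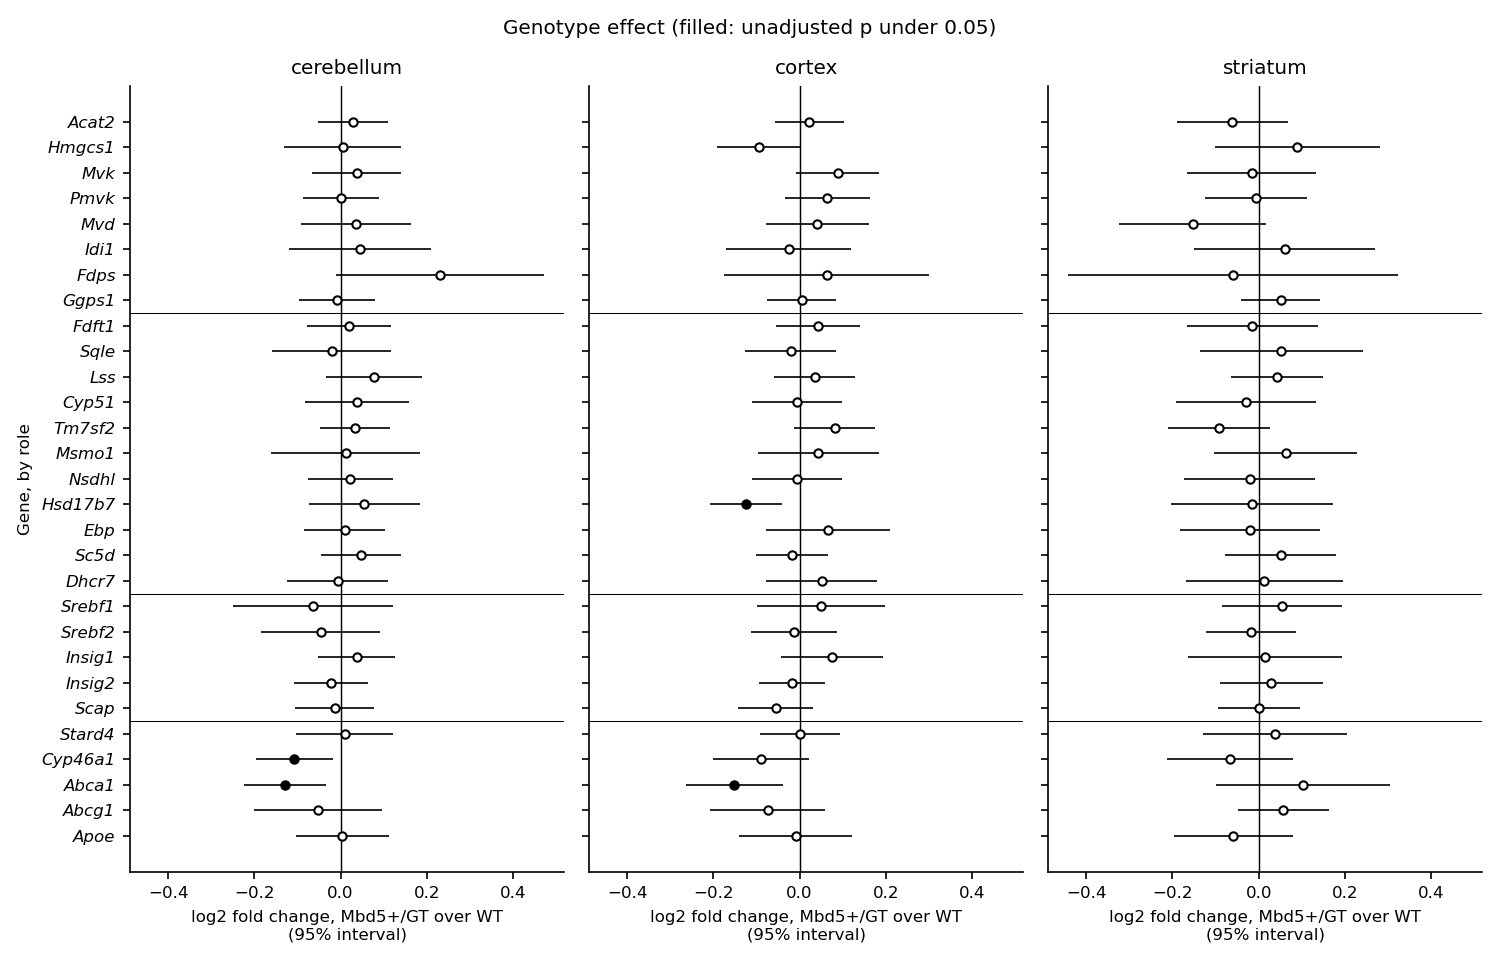
Log2 fold change of Mbd5+/GT against WT (x axis) for the 29 members (y axis, grouped by role), 1 panel per region, with bars for the 95% interval of the edgeR fit. The values lie between −0.15 and 0.23, and the filled points, with an unadjusted p under 0.05, are Abca1 and Cyp46a1 in cerebellum and Hsd17b7 and Abca1 in cortex.

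Summed over the 19 enzymes, expression was 858 ± 386 CPM in Mbd5+/GT and 823 ± 210 CPM in WT cerebellum (SD over 10 and 8 mice). Without mice M755 and M754 it was 738 ± 66.9 and 752.9 ± 76.3 CPM. In cortex it was 1023 ± 71.5 against 1029 ± 34.4 and in striatum 973 ± 140.3 against 937 ± 61.3 CPM. In each case the difference was smaller than the SD between mice. In cortex 5 of 6 choroid plexus markers were higher in Mbd5+/GT mice at an unadjusted p under 0.05, against 8.46% of all genes in either direction. Their median log2 fold change was 2.00, and their summed level ran from 8.17 to 1244 CPM against 20.2 to 240 in WT. Of the ependyma markers, 3 of 5 were higher in Mbd5+/GT cortex by the same threshold, with a median of 0.34. Of 8 astrocyte markers in cortex 1 was higher and 1 lower by that threshold. The 5 striatal neuron markers had a median of −0.44 there, with 0 under it. No marker of these lists had an adjusted p under 0.05 in cortex, the smallest being 0.344 in the edgeR fit. The part of these lists in the cortex values of Abca1 and Hsd17b7 was not tested. None of 8 oligodendrocyte markers had an unadjusted p under 0.05 in any region.

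With all libraries, members varied together across mice to a different degree in each region. After subtracting the mean of each genotype, the median Pearson r over the 406 pairs of members was 0.42 in cerebellum, 0.083 in cortex and 0.17 in striatum over 18 mice, while over all pairs of genes it lay within 0.0023 of 0. Without the low-marker libraries it was 0.19 in cerebellum (16 mice) and 0.18 in striatum (13 mice), so these 2 regions were then alike. The 171 pairs of the 19 enzymes gave higher medians of 0.63, 0.20 and 0.43 in the same order, with 0.37 in cerebellum and 0.48 in striatum without those libraries. The closest pair in cerebellum was Cyp51 and Msmo1, enzymes of nearby steps whose promoters are shown above, at r = 0.978. Without mice M755 and M754 it was at 0.944, behind Ggps1 with Hsd17b7 (0.952) and Hsd17b7 with Sc5d (0.948). In cortex Srebf2 and Scap, the factor and its escort, were closest at 0.954. In striatum Sc5d and Stard4 were closest at 0.928, and Idi1 and Sc5d, at 0.963, without the low-marker libraries. Abca1 ran against Pmvk in cerebellum at −0.968. These values are descriptions of libraries that share depth, transcript length and cell makeup. The length balance correlated with 13, 14 and 12 of 29 members at an absolute r over 0.5 in cerebellum, cortex and striatum. Summed oligodendrocyte markers did so with 23, 2 and 6, and with 14 in cerebellum without mice M755 and M754. The shares over all genes were not computed, so these counts cannot be read as a trait of the members. The part of the length balance and of the oligodendrocyte markers in the co-variation was not tested.

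Genes around the members were read from 6 further lists. Log2 fold changes of genotype are given here with ± SE, and the counts are to be read against the 2.75%, 8.46% and 7.44% of all genes with an unadjusted p under 0.05 in cerebellum, cortex and striatum. Uptake, carriage and storage of sterol had 0 of 18 genes with an unadjusted p under 0.05 in cerebellum, 2 lower in cortex (the lipoprotein receptor Scarb1 at −0.15 ± 0.053 and the lipase Lpl at −0.32 ± 0.12) and 0 in striatum. SREBP processing and the LXR receptors had 0, 1 (Erlin1 lower at −0.16 ± 0.060) and 0 of 10. Fatty acid synthesis, the other SREBP branch, had 0, 1 (Acly lower at −0.16 ± 0.075) and 0 of 14. Other isoprenoid branches had 0 of 12 in cerebellum, 2 lower in cortex (Nus1 at −0.094 ± 0.041 and Pggt1b at −0.16 ± 0.063) and 1 lower in striatum (Fntb at −0.093 ± 0.044). Of 5 oxysterol enzymes, cortex had Ch25h higher at 0.75 ± 0.24 and Hsd3b7 lower at −0.56 ± 0.23, both under 1 CPM on average. None of 4 tested genes of the list of other synthesis enzymes did, and no gene of the 6 lists had an adjusted p under 0.05.

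Between WT regions, 9 of 18 genes of uptake, carriage and storage were called between cortex and cerebellum, 11 between striatum and cerebellum and 7 between striatum and cortex, where 40.4%, 50.4% and 28.9% of all genes were. The corresponding counts were 2, 3 and 2 of 10 for SREBP processing, 4, 7 and 1 of 14 for fatty acid synthesis, 5, 4 and 2 of 12 for isoprenoid branches, 3, 3 and 1 of 5 for oxysterol enzymes and 3, 3 and 0 of 4 for other synthesis. Of the genes with the widest range in each list, 1 or 2 are given as WT means ± SD in the same order of regions. Lpl, which releases fatty acids from lipoproteins, was at 2.13 ± 2.08, 29.3 ± 8.00 and 47.2 ± 24.7 CPM. The LXR receptor gene Nr1h3 was at 11.8 ± 3.02, 3.33 ± 0.455 and 4.97 ± 0.917 CPM and the SREBP protease gene Mbtps2 at 34.1 ± 5.58, 30.4 ± 4.38 and 15.7 ± 3.56 CPM. In fatty acid synthesis the acyltransferase Gpam was at 44.0 ± 17.0, 52.9 ± 12.0 and 27.6 ± 10.6 CPM and the elongase Elovl6 at 108 ± 11.04, 72.0 ± 10.0 and 66.2 ± 7.53 CPM. Icmt, which methylates prenylated proteins, was at 531 ± 162, 83.9 ± 5.38 and 86.0 ± 9.20 CPM and the prenyltransferase subunit Pggt1b at 11.1 ± 5.03, 8.56 ± 2.23 and 3.47 ± 1.19 CPM. Cyp27a1, a sterol hydroxylase of another oxysterol route, was lowest in cortex at 23.2 ± 5.51, 5.98 ± 0.934 and 12.1 ± 2.89 CPM, and Hsd3b7, an oxysterol dehydrogenase, was at 1.40 ± 0.346, 0.399 ± 0.102 and 0.352 ± 0.151 CPM. Acat3, a near copy of Acat2 whose reads can be shared with it, was at 1.14 ± 0.133, 4.98 ± 0.699 and 5.61 ± 0.846 CPM.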

How the data were processed

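RNA with poly(A) tails from 54 libraries of 18 mice was sequenced. Per the paper's methods, the authors aligned reads to GRCm38 with STAR (2.4.2) and deposited raw counts per Ensembl gene. The strand column is not stated, so overlapping genes are uncertain. Counts of 92 ERCC spike-ins (0.0207% to 0.728%) were left out. Same-group libraries differed by a chi-square of at least 8.26 per gene over 219 pairs, where counting error gives 1. The spread between libraries therefore set the precision. With 1 library per mouse and region, mice and the handling of a library cannot be told apart in it. All 54 columns were used, 2 of them WT striatum libraries labelled as repeated.

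The 29 members and all lists were chosen with earlier results of these data known. The test covered genes above 4 counts in 8 or more libraries, all 29 members among them. Within a region, edgeR (4.0.16, TMM, robust quasi-likelihood) was fitted to genotype plus 2, 4 and 4 surrogate variables in cerebellum, cortex and striatum, as in the study (sva 3.50.0). Regions and interactions were fitted over all 54 libraries without covariates. P-values were adjusted over all genes tested. SE was the absolute log2 value over the square root of F. Members named in full were those with an unadjusted p under 0.05, Hmgcs1, Sqle, Srebf2, Insig1, Cyp46a1 and Apoe, and the 2 of each role with the widest WT regional range. Alternatives were DESeq2 (1.42.0), RLE scaling, other filters and covariates, WT libraries alone, mouse as a block, and leaving out litter 2 or the repeats. Leaving out the 7 low-marker libraries was chosen after seeing the data.

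Each mouse gave all 3 regions, which its number pairs. Deviations from group means correlated within a mouse at a median r of 0.16 for cerebellum and cortex, 0.061 for cerebellum and striatum and 0.091 for cortex and striatum, and at −0.0090, −0.0049 and −0.0061 between mice. The scripts were tested on simulated counts. Transcript lengths came from GENCODE and promoters from RefSeq. Some genes of the wider lists are counted with their list and not reported here by name.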

Additional observations from a re-analysis of the deposited data

Results flagged for a closer look

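In 22 of 174 sets of a member and a group, 1 library lay apart from the rest, its gap to the nearest library divided by the range of the group exceeding Dixon's 95% value for its number of libraries, on log2(CPM + 1). Chance flags about 1 in 20 groups, and members of a library are not independent. The share of such sets over all genes was not computed.

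The cerebellum library of mouse M755 (Mbd5+/GT) was the highest for 13 members. Its ratio of gap to range was 0.572 for Acat2, 0.643 for Hmgcs1, 0.493 for Idi1, 0.579 for Fdps, 0.544 for Fdft1, 0.653 for Sqle, 0.595 for Cyp51, 0.551 for Msmo1, 0.721 for Nsdhl, 0.612 for Hsd17b7, 0.501 for Sc5d, 0.584 for Dhcr7 and 0.646 for Insig1. Nsdhl, with the widest gap, was at 51.7 CPM against 15.4 to 21.7 in the other 9 libraries.

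The cerebellum library of mouse M754 (WT) was the highest for 4 members, at 0.532 for Fdft1, 0.682 for Sqle, 0.640 for Nsdhl and 0.650 for Dhcr7. Dhcr7 was at 47.8 CPM against 21.7 to 28.6 in the other 7. Both are low-marker libraries with high oligodendrocyte markers, and the part of cell makeup was not tested.

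The remaining 5 were single members. Acat2 was highest in Mbd5+/GT cortex of mouse M766 (0.473, 39.8 CPM against 27.7 to 33.5), Mvk in WT cortex of mouse M757 (0.549, 21.6 against 13.3 to 16.6) and Scap in WT cortex of mouse M751 (0.579, 97.4 against 73.0 to 82.4). In striatum, Sqle was lowest in Mbd5+/GT mouse M764 (0.519, 35.7 CPM against 53.4 to 77.5) and Hmgcs1 highest in WT mouse M757 (0.549, 278 against 167 to 210.4).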

How the results depend on the processing

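Of the counts and medians recomputed under alternatives, 57 stayed within 1.5 times their value, 5 lost calls, 3 gained calls and 1 moved. The 2 members with an unadjusted p under 0.05 in cerebellum and the 2 in cortex fell to 0 without surrogate variables and to 0 with litter and sex as covariates. In striatum 0 became 3 with litter and sex, Idi1, Sc5d and Stard4, all higher, where 9.22% of all genes were called. Without litter 2 the interactions of striatum with cerebellum and with cortex went from 0 to 1 each, both Stard4, where 4.42% and 6.79% of all genes were called. Striatum against cortex had 9 calls in WT and 3 in Mbd5+/GT mice, and 10 and 7 without the low-marker libraries. Co-variation in cerebellum fell from 0.42 to 0.19 without the low-marker libraries. The cause was not tested.

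In cortex Hmgcs1 took the place of Abca1, at −0.14 (unadjusted p = 0.0111) with at least 10 counts in every library and −0.17 (0.00534) without litter 2. With mouse as a replicate block 11, 17 and 9 members were called in the 3 regional comparisons, against 8, 16 and 9. It added Sqle, Fdps and Hsd17b7 between cortex and cerebellum and Abcg1 between striatum and cerebellum, changed no other call and left 0 interactions.

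Signs turned in 24 genotype values and 2 regional values of named members, none called in either setting, while 130 and 277 kept their sign and side of the threshold. In cerebellum Hmgcs1 was at −0.00064 with no filter, −0.0063 with at least 10 counts, −0.053 without litter 2 and −0.034 without the low-marker libraries. Sqle was at 0.078 without surrogate variables and 0.065 with litter and sex, Srebf2 at 0.0074 with litter and sex and 0.010 without litter 2, and Apoe at −0.00073 with no filter. In cortex Sqle was at 0.024 with no filter. Srebf2 there was at 0.041, 0.076, 0.048, 0.063 and 0.074 and Apoe at 0.014, 0.014, 0.023 and 0.0028 (in the order no surrogate variables, litter and sex, no filter, at least 10 counts and, for Srebf2, without litter 2). In striatum with at least 10 counts Srebf2 was at 0.014, Insig1 at −0.022, Cyp46a1 at 0.015 and Apoe at 0.015, and Srebf2 was at 0.032 without litter 2. Between regions, Insig1 was at 0.079 for cortex against cerebellum without the low-marker libraries, and Sqle at 0.0048 for striatum against cortex in Mbd5+/GT mice.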
